A study of Mus musculus with 2 samples.

Results

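The promoters of Ralb, Epb4.1l5, Ptpn4 and Tmem177 were examined as viewpoints in a chromatin contact map of the En1 locus in mouse limbs. All 4 genes lie in a gene-dense stretch of chromosome 1 below En1, the gene of the homeobox factor Engrailed-1 on which the study centred. A viewpoint was the 10 kb bin that holds the annotated start of a gene (GENCODE M1 annotation on mm9), and its partners were all other bins from position 120180001 up, since the bins below that position were poorly covered. These 4 genes are part of the 25 protein-coding genes that overlap the map, whose starts fall into 24 bins, and the viewpoints were compared with the 20 other start bins and with bins that hold no start. The map came from wild-type fore- and hindlimbs of E10.5 embryos, that is, from mid-gestation. The authors deposited 1 merged map for both samples, which share the genotype, so there was no second condition, no replicate error and no test. Every interval given here is a 95% interval from counting alone, exact Poisson for counts and Wilson for shares, and read pairs without molecular identifiers are not independent molecules. Both sample titles carry the replicate number 2 and the deposited file names list 4 S labels, so it is unclear whether the samples are separate biological replicates or which libraries were merged. How much embryos differ cannot be seen in a merged map, and the number of embryos pooled is not given in the sources used here. A contact map holds no expression values, so the cells of the limb could not be checked against markers.

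In capture Hi-C, fixed chromatin is cut and religated, and probes pull out the ligation products of a chosen region, so that the number of read pairs between positions reports how often they lay close together. Contacts fall steeply with distance along the chromosome, which is why each count is set against the count expected at that distance. Chromosomes are divided into domains whose interior contacts exceed those across their boundaries, and many boundaries in mammals bind CTCF, a zinc-finger protein that halts the loop-extruding cohesin complex in a manner that depends on the direction of its site. Promoters of active genes often lie close to one another in the nucleus. Ralb encodes a Ras-like small GTPase that acts on the exocyst, and Epb4.1l5 encodes a FERM-domain protein of the band 4.1 family needed for cell shape changes in the early mouse embryo. Ptpn4 encodes a non-receptor protein tyrosine phosphatase with FERM and PDZ domains, and Tmem177 encodes a mitochondrial inner membrane protein linked to assembly of cytochrome c oxidase. None of these genes was named in the labels as a target of the study.

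All 4 genes lie on the minus strand, so that higher coordinates are upstream of each start. The 150 bases just upstream of each start, read from the mm9 genome on the minus strand, are shown because they identify the viewpoints; capitals mark CpG dinucleotides.
Ralb (chr1:121401372-121401521): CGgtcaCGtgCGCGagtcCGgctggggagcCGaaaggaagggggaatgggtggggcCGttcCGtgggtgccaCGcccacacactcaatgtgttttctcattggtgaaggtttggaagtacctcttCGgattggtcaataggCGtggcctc
Epb4.1l5 (chr1:121545578-121545727): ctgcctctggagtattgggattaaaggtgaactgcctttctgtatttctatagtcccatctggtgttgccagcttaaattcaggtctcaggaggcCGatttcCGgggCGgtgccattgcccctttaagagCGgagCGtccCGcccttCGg
Ptpn4 (chr1:121734191-121734340): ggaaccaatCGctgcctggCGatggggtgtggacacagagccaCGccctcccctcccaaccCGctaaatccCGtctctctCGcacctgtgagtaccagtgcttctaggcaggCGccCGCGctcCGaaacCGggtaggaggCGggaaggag
Tmem177 (chr1:121809786-121809935): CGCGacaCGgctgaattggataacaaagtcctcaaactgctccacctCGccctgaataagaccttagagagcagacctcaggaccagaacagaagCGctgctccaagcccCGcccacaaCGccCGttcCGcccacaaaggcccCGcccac

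These stretches held 11 CpG dinucleotides at Ralb, 7 at Epb4.1l5, 12 at Ptpn4 and 10 at Tmem177. The median over the same stretch of 1238 protein-coding starts of chromosome 1 was 6, and 37.9% of those starts had at least 10. Over the 25 starts of the map the median was 10, and 13 had at least 10, so the 4 promoters were ordinary among their neighbours in this respect. The letters CCAAT, searched on both strands, occurred 2 times at Ralb and 1 time at each of the other 3, where 24.0% of the 1238 starts held a match. The letters GGGCGG, on both strands, occurred 2 times at Epb4.1l5 and 3 times at Tmem177 and were not found at Ralb or Ptpn4, against 37.0% of starts with a match. A match of letters is a description of the sequence and not evidence of binding. RefSeq promoters (assembly GRCm38.p6) were matched by symbol for 3 of the 4 genes. The RefSeq start minus the annotated start was −12 bases at Ralb, −542 at Ptpn4 and −25 at Tmem177. The stretch and counts given for Ptpn4 thus do not describe the bases next to its RefSeq start.

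The Ralb gene spans chr1:121366882-121401371, and its viewpoint bin, 121400001 to 121410000, holds 1371 bases of the gene and otherwise sequence upstream of it. Epb4.1l5 spans chr1:121441610-121545577 and its bin, 121540001 to 121550000, holds 5577 bases of the gene, 216 of them exonic. Ptpn4 spans chr1:121554621-121734190 and its bin, 121730001 to 121740000, holds 4190 bases of the gene. Tmem177 is the short gene of the set, at chr1:121804467-121809785, and all 5319 bases of it lie in its bin, 121800001 to 121810000. The Tmem177 start lies only 215 bases below the upper edge of that bin, so the contacts of its upstream flank fall mostly into the next bin. Of the annotated transcripts, 2 of 3 start in the viewpoint bin at Ralb, 3 of 3 at Epb4.1l5, 5 of 11 at Ptpn4 and 1 of 1 at Tmem177. The Ptpn4 viewpoint thus leaves out most annotated transcript starts of that gene.

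The map held 6484654 read pairs in 475 bins of 10 kb, of which 422 lay in the range used, with a median of 23885.5 read pairs per bin (1714 to 55287). The Ralb bin had 33990 read pairs, of which 20.2% joined the bin to itself and 27077 joined it to partners. The Tmem177 bin had 28765, with 24.0% inside the bin and 21811 to partners. The Epb4.1l5 bin had 23162, with 9.17% inside the bin and 20985 to partners. The Ptpn4 bin was the shallowest with 15108, of which 16.0% lay inside the bin and 12660 went to partners, and it ranked 340th of the 422 bins. Ptpn4 values therefore carry the widest counting intervals of the set. Expected counts were taken from the average balanced (KR) signal at each distance in the range used, scaled back by the balancing factor of either bin, and O/E is observed read pairs divided by that expected count.

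All 4 viewpoints lay in 1 domain, from 121370001 to 121900000. It is 530 kb long and holds 1 further protein-coding start, that of Gm101. The boundary bin below it, at 121360001, takes in the 3′ end of Ralb, and the boundary bin above it, at 121900001, holds the start of Sctr, which encodes the secretin receptor. Ralb was the viewpoint nearest the lower boundary, with 40 kb between the bins, and Tmem177 was 100 kb below the upper boundary. Insulation scores, the log2 of the mean balanced signal across a bin relative to the median of all bins, were −0.41 at Ralb and −0.33 at Tmem177. They were 0.07 at Epb4.1l5 and 0.02 at Ptpn4. Of 407 scored bins, 81 scored below Ralb and 110 below Tmem177, while 286 scored below Epb4.1l5 and 238 below Ptpn4. The outer 2 viewpoints thus had the lower scores.

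Contacts among the 4 promoters exceeded the distance expectation in 5 of 6 pairs, with lower bounds above 1. At the same 6 distances 24.4% of all bin pairs, and 32.4% of the 179 pairs inside the domain, had a lower bound above 1. Ralb and Tmem177, the outermost pair at 400 kb, had 151 read pairs where 74.0 were expected, an O/E of 2.04 (1.73 to 2.39). This was the highest of the 13 pairs of bins inside the domain at that distance and 23rd of 382 pairs in the whole range. Epb4.1l5 and Tmem177, 260 kb apart, had 154 read pairs where 83.0 were expected, an O/E of 1.86 (1.57 to 2.17). That pair ranked 2nd of 27 inside the domain and 22nd of 396 in the range. Both pairs with the highest O/E thus involved the small Tmem177 gene.

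The other pairs were lower. Ralb and Epb4.1l5, 140 kb apart, had 221 read pairs where 154 were expected, an O/E of 1.43 (1.25 to 1.64), and ranked 5th of 39 pairs in the domain. Ptpn4 and Tmem177, 70 kb apart, had 250 read pairs where 175 were expected, also an O/E of 1.43 (1.26 to 1.62), ranking 6th of 46. Epb4.1l5 and Ptpn4, whose starts lie 189 kb apart, had 88 read pairs where 64.1 were expected, an O/E of 1.37 (1.10 to 1.69). With an expectation from raw counts at each distance, which ignores the shallow coverage of the Ptpn4 bin, this value turned to 0.902. Ralb and Ptpn4, 330 kb apart, had 68 read pairs where 53.6 were expected, and the interval of its O/E of 1.27 reached from 0.985 to 1.61. An excess was not detectable for that pair at this depth, and its value was 0.969 with 25 kb bins.

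**Figure D1:**
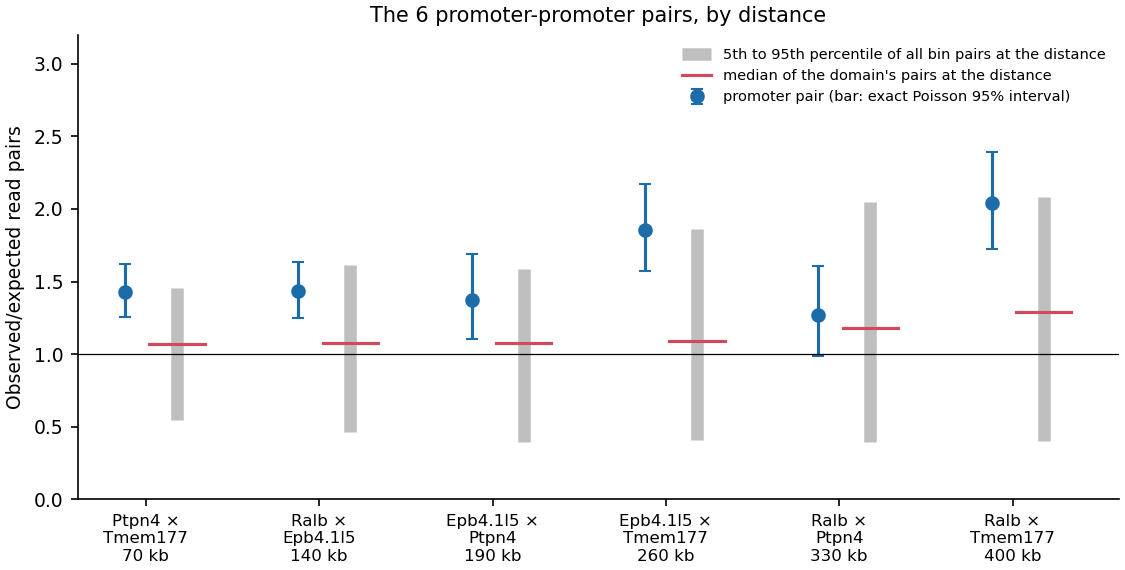
Observed/expected read pairs (vertical axis) of the 6 promoter pairs, ordered by distance. Points carry exact Poisson 95% intervals, grey bars span the 5th to 95th percentile of all bin pairs at that distance and red lines mark the median of the pairs inside the domain. All 6 points lie above the red line of their distance, and Ralb with Tmem177 (2.04) and Epb4.1l5 with Tmem177 (1.86) lie highest.

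Summed over the 6 pairs, 932 read pairs were seen where 604 were expected, an O/E of 1.54 (1.45 to 1.65). All 1081 pairs of bins inside the domain at 70 kb or more gave 1.12 (1.11 to 1.13). Every promoter pair also lay above the median of the domain's pairs at its own distance, which ran from 1.07 to 1.29. A narrower comparison set each pair against the ring of bin pairs 2 to 5 bins away. By that measure Epb4.1l5 with Tmem177 was 1.53 times its ring, Ptpn4 with Tmem177 1.43 times and Ralb with Tmem177 1.35 times. Ralb with Ptpn4 was 1.02 times its ring, so that its neighbourhood was as high as the pair itself. The ring leaves out adjacent bins. From Tmem177, the bins on either side of Epb4.1l5 had an O/E of 1.85 and 2.01, so its 1.86 was not a local peak in that profile. The bins beside Ralb were lower than its 2.04, but those at 121420001 and 121430001 had 2.07 and 2.15. Seen from Ralb and Epb4.1l5, the bins beside Tmem177 were lower than Tmem177. From Ptpn4 the bin just below Tmem177 was higher, at 1.49. The Ptpn4 and Tmem177 pair depended on bin size: its O/E was 1.10 with 5 kb bins and 1.06 with 25 kb bins.

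The share of contacts toward higher coordinates, which is upstream for these genes, separated Tmem177 from the other 3. Of 21811 read pairs of Tmem177, 8952 went to higher coordinates, a share of 41.0% (40.4 to 41.7%) where 52.6% was expected. Ptpn4 had 51.1% (50.2 to 52.0%) against an expected 54.8%, and Epb4.1l5 had 47.9% (47.2 to 48.5%) against 50.4%. Ralb had 47.3% (46.7 to 47.9%) against 48.2%. All 4 shares thus lay below their expectation, but for Ralb and Epb4.1l5 the direction depended on the setting. Within 1 Mb on either side the Ralb share was 45.6% against an expected 45.5%, and with 5 kb bins the Epb4.1l5 share was 52.1% against 51.2%.

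**Figure D2:**
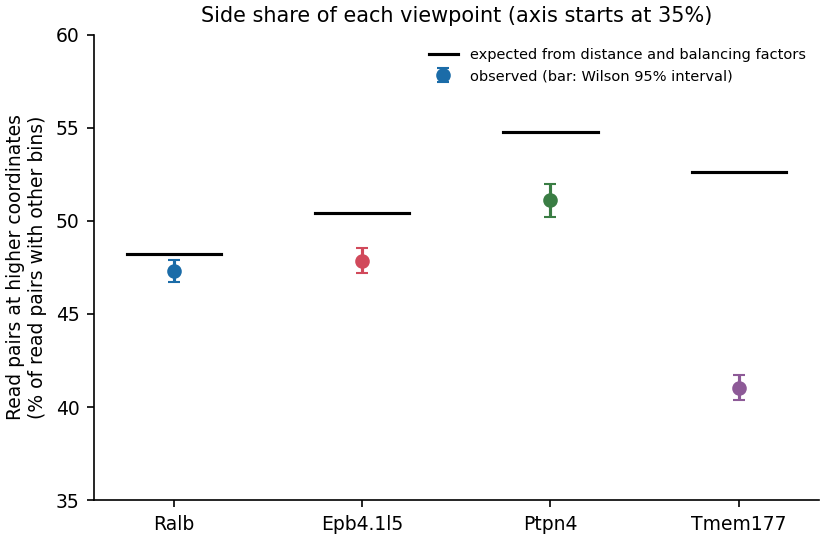
Share of read pairs with partners at higher coordinates (vertical axis, in percent, starting at 35%) for each viewpoint. Points carry Wilson 95% intervals and black lines mark the share expected from distance and balancing factors. Tmem177, at 41.0%, differs from its line by −11.6 points, while the other 3 differ by −0.92 to −3.67 points.

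Among all bins measured the same way, only the shift of Tmem177 was among the larger ones. Over the 222 bins with 1 Mb of map on both sides, the median absolute difference from expectation within 1 Mb was 4.79 percentage points. The difference was 0.0986 points at Ralb, −1.41 at Epb4.1l5, −3.03 at Ptpn4 and −11.3 at Tmem177. Of the 222 bins, 33 had a larger absolute difference than Tmem177, while 216 had a larger one than Ralb. Among the 11 other start bins measured the same way, Inhbb had −12.4 points, close to Tmem177, and En1 had 24.7 points in the opposite direction.

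The side difference of Tmem177 was spread over distance. At 100 to 290 kb its O/E was 1.40 (1.35 to 1.46) toward lower coordinates, across the interior of the domain, and 0.829 (0.793 to 0.866) toward higher coordinates. At 300 to 590 kb these values were 1.47 (1.42 to 1.53) and 0.611 (0.575 to 0.648). Ralb, at the other end of the domain, had the reverse at 100 to 290 kb, with 0.794 (0.761 to 0.827) toward lower coordinates, outside the domain, and 1.03 (0.988 to 1.08) toward higher ones. At 300 to 590 kb Ralb was above expectation on both sides, at 1.33 (1.28 to 1.38) and 1.28 (1.23 to 1.33). The 2 inner viewpoints differed from each other at 100 to 290 kb. Epb4.1l5 was above expectation on both sides, at 1.12 (1.07 to 1.16) and 1.258 (1.202 to 1.316), while Ptpn4 had 1.11 (1.05 to 1.17) toward lower and 0.885 (0.837 to 0.934) toward higher coordinates.

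Farther out the 4 viewpoints shared a pattern. At 600 to 990 kb toward higher coordinates all 4 were depleted, with an O/E of 0.794 (0.746 to 0.845) at Ralb, 0.693 (0.643 to 0.747) at Epb4.1l5, 0.567 (0.516 to 0.623) at Ptpn4 and 0.518 (0.480 to 0.559) at Tmem177. At 1000 to 1990 kb toward lower coordinates all 4 were enriched, with 1.48 (1.36 to 1.61), 1.47 (1.36 to 1.60), 1.35 (1.25 to 1.46) and 1.55 (1.46 to 1.63) in the same order. The lower side of that range is cut by the end of the range used, so it covered 23 bins for Ralb and 63 for Tmem177.

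**Figure D3:**
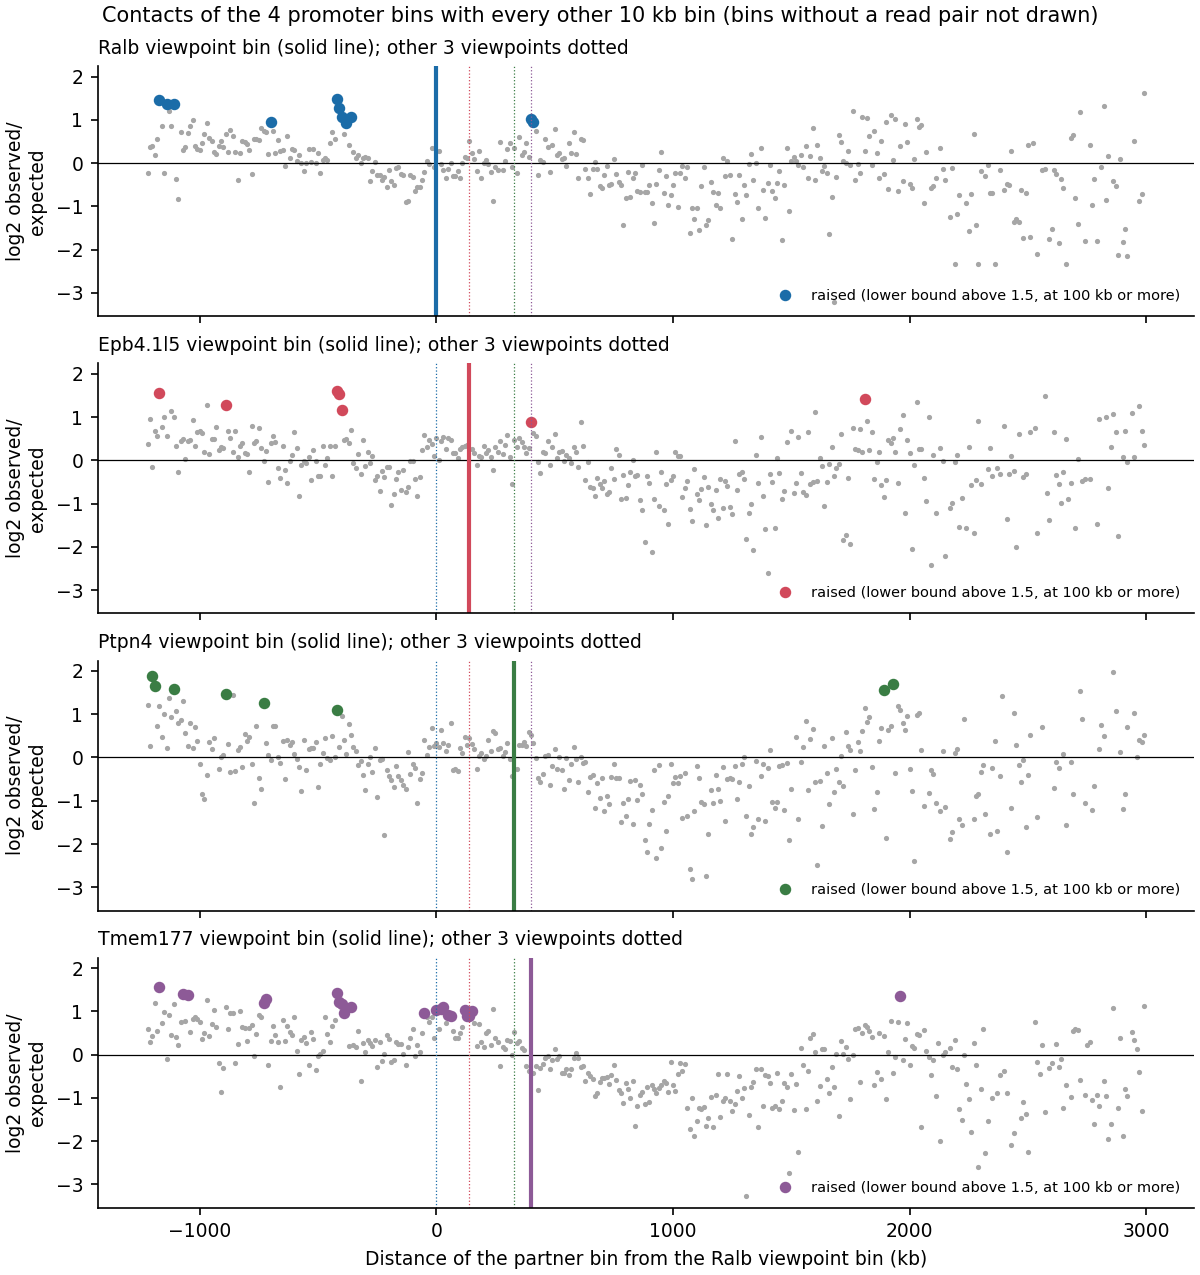
log2 observed/expected (vertical axis) of every partner bin of each viewpoint, by its distance in kb from the Ralb viewpoint bin (horizontal axis). Solid lines mark the viewpoint, dotted lines the other 3, and coloured points the raised partners defined in the text. The 4 profiles share raised points about 420 kb below Ralb and a broad dip on the higher-coordinate side. Inside the domain Tmem177 has 9 raised points, Ralb 2, Epb4.1l5 1 and Ptpn4 0.

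Resolved by domain, each viewpoint made most of its contacts at home. Inside their own domain lay 56.1% (55.5 to 56.7%) of the Ralb contacts, where 55.3% was expected, and 66.9% (66.2 to 67.5%) of those of Epb4.1l5, where 61.7% was expected. The share was 64.8% (64.0 to 65.6%) at Ptpn4 with 60.1% expected, and 60.2% (59.5 to 60.8%) at Tmem177 with 57.5% expected. Epb4.1l5 was the viewpoint with the highest O/E inside the domain, at 1.204 (1.184 to 1.224), against 1.03 (1.01 to 1.05) at Ralb, 1.03 (1.01 to 1.05) at Ptpn4 and 1.00 (0.987 to 1.02) at Tmem177. With a 250 kb insulation window the upper boundary was not called and the domain ran on to 122040000, which raised the shares to between 59.2 and 70.9%.

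Beyond the domain, contacts did not simply decline. The domain of Steap3, C1ql2 and Marco, which lies between these genes and En1, was depleted for all 4, at 0.743 (0.696 to 0.794) for Ralb, 0.690 (0.643 to 0.739) for Epb4.1l5, 0.567 (0.526 to 0.611) for Ptpn4 and 0.623 (0.592 to 0.656) for Tmem177. The En1 domain was depleted too, at 0.716 (0.662 to 0.774), 0.697 (0.641 to 0.757), 0.633 (0.579 to 0.691) and 0.540 (0.503 to 0.579) in the same order. The next gene-bearing domain beyond En1, that of Insig2, Ccdc93, Htr5b and Ddx18, came back to 1.26 (1.13 to 1.39) for Ralb, 1.12 (0.992 to 1.26) for Epb4.1l5, 1.33 (1.18 to 1.49) for Ptpn4 and 1.16 (1.05 to 1.27) for Tmem177. In the gene-free stretches beyond it the values were 0.548 to 0.761 again. At the other end of the map the farthest domain used, with the starts of Tsn, Mki67ip, Clasp1, 2900060B14Rik and Gm11102, was enriched for all 4. Its O/E was 1.48 (1.37 to 1.60) for Ralb, 1.48 (1.33 to 1.63) for Epb4.1l5, 1.64 (1.44 to 1.86) for Ptpn4 and 1.69 (1.53 to 1.87) for Tmem177.

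Most of this pattern was shared with bins of the same domain that hold no gene start. The 48 such bins had a median O/E of 1.39 with the Tsn to Gm11102 domain, 0.658 with the Steap3 to Marco domain, 0.606 with the En1 domain and 1.17 with the Insig2 to Ddx18 domain. The viewpoints stood at the edge of that range in a few places. Only 2 of the 48 bins exceeded Tmem177 with the Inhbb domain, where its O/E was 1.23 (1.17 to 1.28) and that of the other 3 viewpoints lay between 0.877 and 0.944. Likewise 2 of the 48 exceeded Tmem177, and 2 exceeded Ptpn4, with the Tsn to Gm11102 domain. Inhbb encodes the beta B subunit of inhibin and activin.

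**Figure D4:**
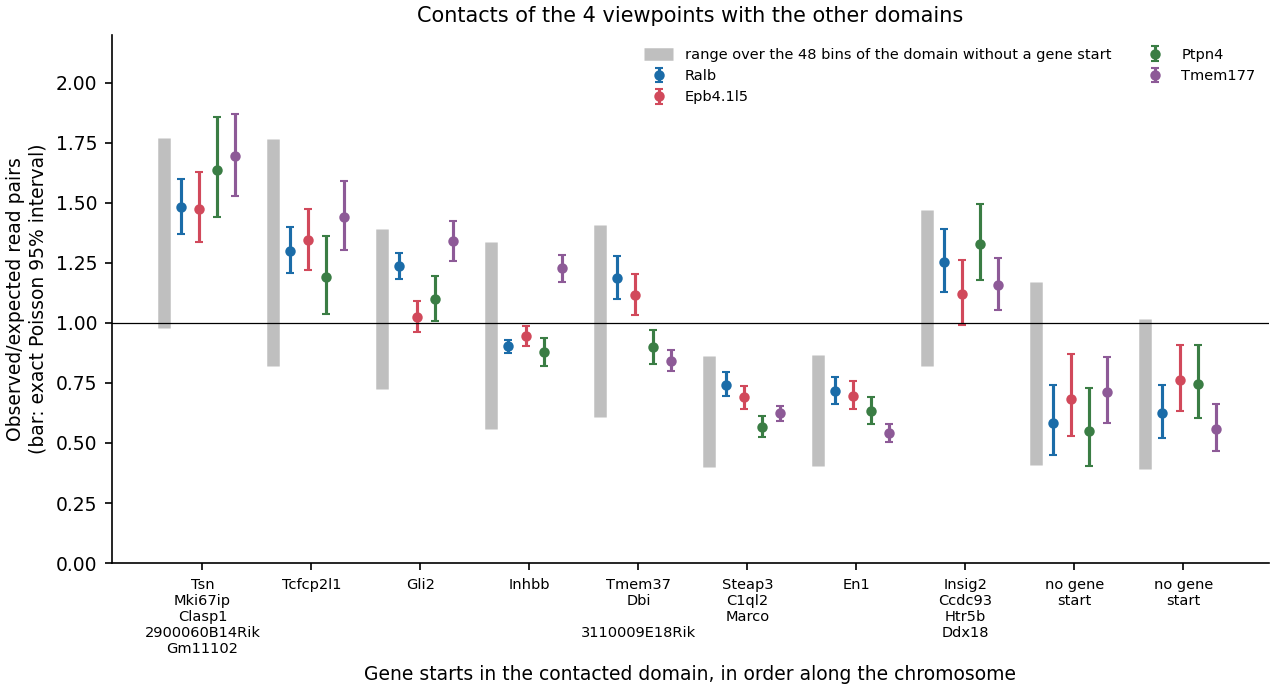
Observed/expected read pairs (vertical axis) of the 4 viewpoints with each other domain, in order along the chromosome and labelled by the gene starts it holds. Points carry exact Poisson 95% intervals, and grey bars span the 48 bins of the home domain without a gene start. All 4 viewpoints lie above 1 with the Tsn to Gm11102 domain and below 0.75 with the Steap3 to Marco and En1 domains.

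Single partner bins at 100 kb or more were called raised when they had at least 10 read pairs and a lower bound of O/E above 1.5. Over all bin pairs of the range, 5.88% of those tested were raised. Tmem177 had 21 raised bins of 274 tested (7.66%), Ralb 11 of 259 (4.25%), Ptpn4 8 of 214 (3.74%) and Epb4.1l5 7 of 235 (2.98%). Only Tmem177 lay above that background. That order rests on the rule: when the lower bound had to exceed 2, Tmem177 had 1 raised bin (0.365%) where 2.02% of all pairs were raised, and all 4 viewpoints lay below the background. Of the 21 raised bins of Tmem177, 20 lay at lower coordinates. Of those, 9 lay inside the domain, all 250 to 400 kb away, and included the Ralb and Epb4.1l5 start bins. Lowered bins, with at least 10 expected read pairs and an upper bound below 0.667, made up 6.31% of all pairs tested. Tmem177 had 13 of 266 and Ptpn4 12 of 213, and 13 and 11 of these lay at higher coordinates. Ralb had 4 of 266 and Epb4.1l5 2 of 232. With the expectation from raw counts per distance, a setting that leaves out the balancing factors, the raised counts were 51 for Ralb, 9 for Epb4.1l5, 0 for Ptpn4 and 43 for Tmem177. In that setting 11.97% of all pairs were raised, and Ralb (19.7%) and Tmem177 (15.7%) both lay above it.

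The raised bins of the 4 viewpoints were 33 distinct bins, of which 24 were raised for a single viewpoint, 5 for 2, 3 for 3 and 1 for all 4. The bin raised for all 4 spans chr1:120980001-120990000. It is the boundary bin between the domain of Gli2, a zinc-finger transcription factor of Hedgehog signalling, and that of Inhbb. It overlaps no annotated gene and lies 30 kb from the nearest gene, Gli2. Ralb, 420 kb away, had 196 read pairs with it where 70.7 were expected, an O/E of 2.77 (2.40 to 3.19). Epb4.1l5, 560 kb away, had 122 where 40.1 were expected, an O/E of 3.04 (2.53 to 3.63). Ptpn4, 750 kb away, had 42 where 19.7 were expected, an O/E of 2.13 (1.53 to 2.88). Tmem177, 820 kb away, had 84 where 31.4 were expected, an O/E of 2.67 (2.13 to 3.31). The intervals of all 4 overlapped.

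By its lower bound this bin was the strongest partner of Ralb, Epb4.1l5 and Tmem177 and the 8th of the 8 raised bins of Ptpn4. Among all bin pairs at its distance it ranked 7th of 380 for Ralb and 8th of 366 for Epb4.1l5. It ranked 25th of 347 for Ptpn4 and 15th of 340 for Tmem177. Whether bins of the home domain without a start contact this bin as much was not tested. The shared bin was not raised for Ptpn4 with an expectation from raw counts per distance, where its O/E was 1.66 (1.19 to 2.24), or when the lower bound had to exceed 2. On the Gli2 side the values dropped within 1 bin. In the bin just below, at 120970001, the O/E was 1.47 for Ralb, 1.26 for Epb4.1l5, 1.01 for Ptpn4 and 1.76 for Tmem177. The intervals of the 2 bins were apart for Ralb and Epb4.1l5 and overlapped for Ptpn4 and Tmem177. On the Inhbb side Ralb, Epb4.1l5 and Tmem177 stayed above 2, with 2.41, 2.87, 1.18 and 2.32 at 120990001 and 2.10, 2.25, 1.95 and 2.26 at 121000001 in the same order. In 5 kb bins the highest values lay between 120980001 and 120995000, with 3.11 for Ralb in the bin at 120985001 and 3.40 for Epb4.1l5 in the bin at 120990001.

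**Figure D5:**
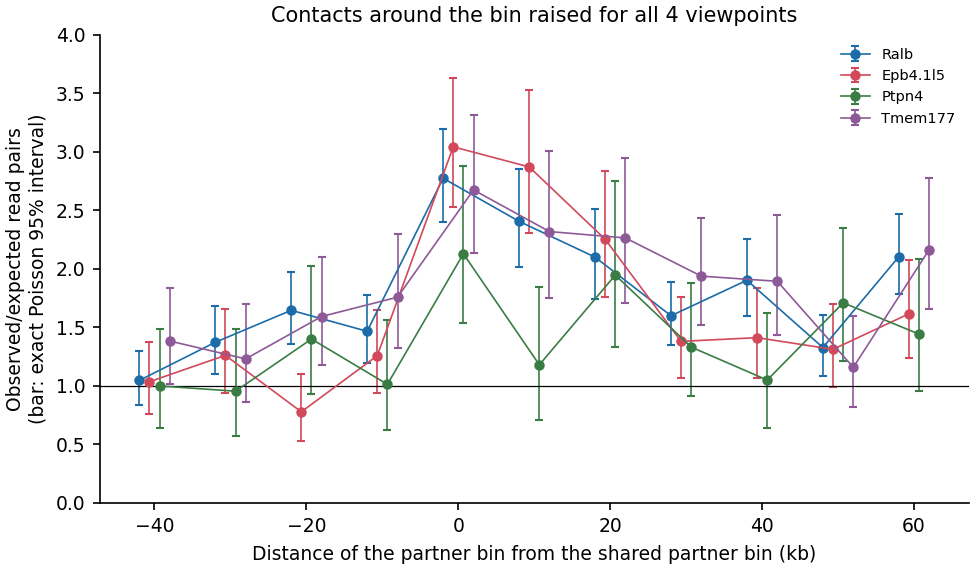
Observed/expected read pairs (vertical axis) of the 4 viewpoints with the bins around the shared partner bin, by distance from it in kb (horizontal axis, points of the 4 genes drawn side by side). Bars are exact Poisson 95% intervals. All 4 lines rise between the bin just below, with values of 1.01 to 1.76, and the shared bin, with values of 2.13 to 3.04.

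The shared bin and the boundary bin above the domain at Sctr each held 1 match, on either strand, to the CTCF core letters CCNNNAGGNGGC. The matches are shown with 9 bases on each side, 5′ to 3′ on the strand of the match, with the core in capitals.
Shared partner bin (chr1:120984290-120984319, plus strand): gcatcttatCCACCAGGTGGCgatctaatg
Sctr boundary bin (chr1:121909887-121909916, minus strand): agaagctggCCACCAGGGGGCagagctggg
Of all 422 bins, 23.0% held at least 1 match, and the bin just below the shared one held 1 as well. None of the 4 viewpoint bins and not the boundary bin in Ralb held a match. A match here is a description of letters, and the absence of a match says only that these letters are not in the bin. Binding of CTCF was not measured. DpnII cuts at GATC, and the 4 viewpoint bins held 25, 23, 19 and 21 such sites against a median of 25 per bin.

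Beyond the shared bin, some strong partners recurred and others were named for a single viewpoint, and differences between viewpoints were not tested. Ralb had its next named partner at 120260001, 1140 kb away, with 37 read pairs and an O/E of 2.58 (1.82 to 3.56), in sequence 16 kb from Clasp1, and with 25 kb bins the value was 1.69. It was followed by 121040001, in gene-free sequence of the Inhbb domain, with 153 read pairs and an O/E of 2.10 (1.78 to 2.46). That bin was raised for Tmem177 too, at 2.16 (1.66 to 2.77), and had 1.62 (1.24 to 2.07) with Epb4.1l5. Epb4.1l5 contacted the bin at 120230001, which takes in 399 exonic bases of Mki67ip, with 14 read pairs and an O/E of 2.96 (1.62 to 4.96). Mki67ip encodes a nucleolar protein that binds Ki-67. With the expectation from raw counts per distance this value was 1.34. That bin was raised for Ralb and Tmem177 too, at 2.76 (1.71 to 4.22) and 2.97 (1.58 to 5.08). It was shallow, with 9587 read pairs in total against a median of 23885.5 per bin. Only 4.37 (Tmem177) to 7.60 (Ralb) read pairs were expected with these viewpoints. On the other side Epb4.1l5 contacted the bin at 123210001 inside Insig2, 1670 kb away, with 18 read pairs and an O/E of 2.69 (1.59 to 4.25). The value was 1.52 with 25 kb bins. Insig2 encodes an endoplasmic reticulum protein of sterol sensing.

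Ptpn4 had the most distant set. Its strongest partner was the bin at 120200001 that holds the start of Tsn, the gene of the nucleic acid-binding protein translin, 1530 kb away, with 19 read pairs where 5.13 were expected, an O/E of 3.70 (2.23 to 5.78). This was the highest of 269 bin pairs at that distance. The next bin, with the start of Mki67ip, had 17 read pairs and an O/E of 3.13 (1.83 to 5.02). That bin had 2.29 (1.36 to 3.62) with Tmem177, 1.59 (0.888 to 2.62) with Epb4.1l5 and 1.13 (0.659 to 1.81) with Ralb. The intervals of Tmem177 and Epb4.1l5 overlapped that of Ptpn4. The other viewpoints did not share the Tsn contact at that size, with an O/E of 1.32 (0.805 to 2.03) at Ralb, 0.896 (0.387 to 1.76) at Epb4.1l5 and 1.36 (0.677 to 2.43) at Tmem177, and the interval of Tmem177 overlapped that of Ptpn4. Ptpn4 also contacted 2 bins beyond En1, at 123330001 inside Ccdc93 with 17 read pairs and an O/E of 3.23 (1.88 to 5.17), and at 123290001, 28 kb from Ccdc93, with 13 read pairs and an O/E of 2.94 (1.56 to 5.02). These rest on few read pairs, and in 25 kb bins their O/E was 1.25 and 1.44, while that of the Tsn bin was 1.93. No bin of this distant set had 20 read pairs, so none was raised where that many were required. With the expectation from raw counts per distance Ptpn4 had 0 raised bins.

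Tmem177 contacted the bin at 120680001, 1120 kb away in the Gli2 domain and 41 kb from Gli2, with 47 read pairs and an O/E of 2.45 (1.80 to 3.25), and with 25 kb bins the value was 1.4995. Its first partner inside the domain by lower bound was the bin at 121420001, between Ralb and Epb4.1l5, with 200 read pairs where 96.5 were expected, an O/E of 2.07 (1.80 to 2.38). With the expectation from raw counts per distance it was 3.67. That bin holds Tmem185b, which the annotation used does not list as protein-coding, and 1 match to the CTCF core on the minus strand. The adjacent bin at 121430001 held no match and had a higher O/E of 2.15 (1.80 to 2.57), with a nearly equal lower bound. The bin at 121420001 was thus not a single peak.

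Summed over the range used, start bins of protein-coding genes had a higher O/E than other bins for each viewpoint. Over start bins at 100 kb or more the summed O/E was 1.413 (1.332 to 1.498) for Ralb, against 1.03 (1.01 to 1.05) for all bins without a start. It was 1.34 (1.26 to 1.42) against 1.02 (1.00 to 1.04) for Epb4.1l5, 1.05 (0.973 to 1.14) against 0.895 (0.873 to 0.918) for Ptpn4 and 1.12 (1.06 to 1.19) against 1.03 (1.01 to 1.04) for Tmem177. Part of the excess lay inside the domain. For the 19 start bins outside it, at any distance, the values were 1.09 (1.02 to 1.17) against 0.991 for Ralb, 1.23 (1.13 to 1.33) against 0.942 for Epb4.1l5, 1.01 (0.914 to 1.11) against 0.826 for Ptpn4 and 0.973 (0.908 to 1.04) against 0.894 for Tmem177. For Ralb they include the Inhbb start bin at 90 kb, with 154 read pairs against 242 expected. Its 1.09 thus cannot be set against its 1.413, which was limited to 100 kb or more. The intervals of start bins and other bins did not overlap, except outside the domain at Tmem177, where other bins reached from 0.874 to 0.914. Start bins and other bins were not matched by domain. Home-domain bins without a start also had a median O/E of 1.39 with the Tsn to Gm11102 domain and 1.17 with the Insig2 to Ddx18 domain. With the gene-free stretches beyond Ddx18 their medians were 0.676 and 0.710. Whether start bins exceeded other bins of the same domain was not tested. Raised start bins were few: 1 of 19 tested for Ralb, 1 of 20 for Epb4.1l5, 2 of 16 for Ptpn4 and 3 of 21 for Tmem177, where 14.0% of all pairs of start bins were raised.

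Values with 3 start bins next to the domain, chosen after they were seen, follow. The Sctr start bin, which is the upper boundary bin, had an O/E of 1.72 (1.43 to 2.05) with Ralb at 500 kb and 1.51 (1.25 to 1.82) with Epb4.1l5 at 360 kb. It had 1.15 (0.953 to 1.37) with Ptpn4 and 1.09 (0.972 to 1.23) with Tmem177, so the more distant viewpoints had the higher values. The start bin shared by Dbi and 3110009E18Rik had 1.46 (1.13 to 1.86) with Ralb, 1.84 (1.46 to 2.29) with Epb4.1l5, 1.01 (0.753 to 1.32) with Ptpn4 and 0.818 (0.659 to 1.00) with Tmem177. Inhbb lies across the lower boundary, only 90 kb from the Ralb bin, and 154 read pairs joined them against 242 expected, an O/E of 0.635 (0.539 to 0.744). Inhbb had an O/E of 0.746 (0.573 to 0.954) with Epb4.1l5 and 0.840 (0.567 to 1.199) with Ptpn4. With Tmem177, 490 kb away, Inhbb had 50 read pairs where 51.1 were expected.

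The En1 start bin was a weak partner of these promoters. It had 9 read pairs with Ralb where 22.2 were expected, an O/E of 0.406 (0.186 to 0.770), and 9 with Ptpn4 where 21.2 were expected, an O/E of 0.425 (0.194 to 0.807). Tmem177 had 11 where 40.5 were expected, an O/E of 0.272 (0.136 to 0.486). Epb4.1l5 had 18 where 20.6 were expected, an O/E of 0.874 (0.518 to 1.38), and no depletion was detectable there at this depth. The bin at 123070001, the strongest partner of En1, had 6 to 13 read pairs with each viewpoint and O/E values of 0.576 to 1.37, and all 4 intervals included 1.

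The contact profiles were compared as log2 O/E over 384 to 396 bins at 100 kb or more from both viewpoints. They were positively correlated among the viewpoints. Likeness was broadly lower for distant start bins but did not follow distance strictly. Tsn, 1200 to 1600 kb away, gave a Pearson r of 0.00655 to 0.0580 with the 4 viewpoints. Ralb was less like Epb4.1l5 at 140 kb (0.352) than Tmem37 at 570 kb. For Ralb the most similar start bins were those of Tmem37 (Pearson r = 0.502) and Sctr (0.486). For Epb4.1l5 they were Sctr (0.439) and Tmem37 (0.395), for Ptpn4 Tmem177 (0.436) and Gm101 (0.401), and for Tmem177 Gm101 (0.558) and Sctr (0.501). Among the 4 viewpoints themselves r ran from 0.303 for Epb4.1l5 with Ptpn4 to 0.475 for Ralb with Tmem177, and En1 gave 0.0141 with Tmem177. Limited to bins within 1.5 Mb of both viewpoints, the 6 values were 0.448 to 0.692. The bins compared come from 1 library set, neighbouring bins are not independent, and counting noise in shallow bins lowers r, so these values are a description only.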

How the data were processed

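Per the labels' protocols, limbs were dissociated, fixed in 2% paraformaldehyde, digested with DpnII, religated, and hybridised to SureSelect probes. The submitters' processing notes name Bowtie2 2.3.4.1, Juicer 1.7.6, SAMtools and mm9, without roles. The deposited file names add HiCUP and a mapping quality minimum of 30, whose versions and use are not given in the sources used here. The authors deposited raw read-pair counts and a balanced contact signal (KR, row sums 22062.3) for 1 map named as merged, in a series of 2 samples.

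Expected counts, O/E, intervals, insulation (150 kb window, boundary prominence of at least 0.2) and calls were computed with Python 3.11.15, NumPy 2.4.6 and SciPy 1.17.1, and the calls were checked on simulated data. Named partners were the 3 raised bins per viewpoint with the highest lower bound, skipping bins within 2 bins of one taken. Named start bins were the 2 most alike in profile, and En1. The Mki67ip, Sctr, Dbi and Inhbb start bins were added after values were seen. The members and lists were chosen with earlier results of these data known.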

Additional observations from a re-analysis of the deposited data

Results flagged for a closer look

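The 4 viewpoints had 188 read pairs with the poorly covered low-coordinate end of the map, which lies outside the range used. They were singled out because the bins of that end were not used as partners above. These read pairs do count in the bin totals given above, and no expected count was set beside them. Of the 188, 61 belonged to Ralb, 54 to Epb4.1l5, 28 to Ptpn4 and 45 to Tmem177.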

How the results depend on the processing

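Results without either sample could not be had from a merged map. No paired analysis was possible because all samples belong to 1 group. Changes are judged against counting error alone, and the cause was not tested except where the construction of a setting shows it. Values follow the order Ralb, Epb4.1l5, Ptpn4, Tmem177 where 4 are given.

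The share at higher coordinates was 51.6, 49.1, 47.4 and 39.2% on KR values, and 46.6, 52.1, 49.2 and 39.7% with 5 kb bins, where Epb4.1l5 turned to above its expectation. With 25 kb bins it moved to 49.2% for Ralb, 52.0% for Ptpn4 and 42.9% for Tmem177. Without bins within 50 kb it was 49.1, 44.6, 47.3 and 39.0%. A viewpoint of 3 bins gave 48.7% for Ralb and 46.6% for Epb4.1l5. Within 1 Mb, Epb4.1l5 moved to 46.8%, and Ralb turned to above its expectation at 45.6%.

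Of the promoter pairs, Epb4.1l5 with Ptpn4 turned to 0.902 with the expectation from raw counts per distance, which leaves out balancing factors. That setting also gave 1.78 for Ralb with Epb4.1l5, 2.99 for Ralb with Tmem177 and 1.16 for Ptpn4 with Tmem177. Ralb with Tmem177 was 2.43 with medians per distance and 1.69 with 25 kb bins, where Ralb with Ptpn4 was 0.969 and Ptpn4 with Tmem177 1.06. Ptpn4 with Tmem177 was 1.10 with 5 kb bins. The other 21 of 30 values stayed within their intervals.

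Raised partners numbered 31, 22, 15 and 44 with a lower bound above 1.2, and 2, 2, 1 and 1 above 2. Over all pairs 13.1% were raised at 1.2, where only Tmem177 (16.1%) lay above that share, and 2.02% at 2, where none of the 4 did. They numbered 51 for Ralb, 0 for Ptpn4 and 43 for Tmem177 with the raw-count expectation (11.97% of all pairs), and 20 for Ralb and 11 for Epb4.1l5 with medians. At least 20 read pairs left 2 for Ptpn4, and the ring left 4 for Ralb. The named partners stayed above 1 in all 48 values, at 1.25 to 4.08. They were picked for high values in the same counts, so values above 1 are no support for them. Of the 48 values, 18 lay outside the interval of the main setting. Bins of 5 kb were not tried for named partners. The share inside the domain was 68.5, 68.0 and 62.8% on KR values for Epb4.1l5, Ptpn4 and Tmem177, 59.2, 70.5, 70.9 and 67.9% with a 250 kb window, and 58.0% for Ralb with a 100 kb window.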
